A study of Mus musculus with 38 samples.

Results

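Prelp, Spon2, Cthrc1 and Hpse encode 4 secreted proteins of the extracellular matrix, taken here from 21441 genes measured in the intestine of vitamin D deficient mice. They were picked because their FPKM, fragments scaled for transcript length and library size, stood higher after calcitriol in at least 1 of 3 tissues. Their differences between treated and vehicle mice are therefore given as a description, with no p-value.

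All mice were wild type, of the C57BL6/J strain and vitamin D deficient. The treated mice received 1,25(OH)2D3, which is calcitriol, by intraperitoneal injection at 10 ng per g of body weight, and the controls received 0.1 ml of a propylene glycol and ethanol vehicle. Both were killed 4 h later. The labels give an age of 10 to 13.3 weeks in one field and 12 to 14 weeks at injection in another, and they list the sex as pooled male and female without saying how many mice stand behind a library. RNA was sequenced from vitamin D villi (n = 7) and vehicle villi (n = 6), from vitamin D crypts (n = 6) and vehicle crypts (n = 6), and from vitamin D colon (n = 7) and vehicle colon (n = 6). Villi and crypts were shaken from the duodenal end of the small intestine with EDTA and parted on a 70 µm filter, whereas the colon was scraped with glass until only its muscle layer was left.

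Calcitriol binds the vitamin D receptor, which pairs with a retinoid X receptor and occupies direct repeats of a short half-site near target genes. Prelp, also called prolargin, is a small leucine-rich proteoglycan family member that binds collagen and the heparan sulphate of perlecan and is known as an anchor of basement membranes. Spon2, or mindin, is a secreted spondin that binds bacteria and integrins. Cthrc1 is a secreted protein with a short collagen-like stretch, known from repairing arteries and as a co-factor of non-canonical Wnt signalling. Hpse, or heparanase, is the endoglycosidase that cuts heparan sulphate chains. In most tissues Prelp and Cthrc1 are best known from connective tissue cells, not from epithelium.

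The RefSeq promoter table of GRCm38.p6 held Prelp and Hpse, and both 300-base windows, 250 bases before and 50 after the transcript start, are shown because they are the stretches in which a receptor half-site was looked for. The Prelp window lies at chr1:133921352-133921651 on the minus strand and the Hpse window at chr5:100719667-100719966 on the minus strand, each written 5′ to 3′ along its gene. Capitals mark a match to a half-site on either strand, the forms searched being AGGTCA, the variant GGGTCA, the variant AGTTCA and the variant GGTTCA.
Prelp: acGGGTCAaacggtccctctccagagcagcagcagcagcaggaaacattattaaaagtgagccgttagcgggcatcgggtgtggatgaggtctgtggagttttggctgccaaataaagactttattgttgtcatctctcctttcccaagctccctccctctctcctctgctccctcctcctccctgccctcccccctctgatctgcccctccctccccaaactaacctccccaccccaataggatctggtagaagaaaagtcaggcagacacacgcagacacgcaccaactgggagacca
Hpse: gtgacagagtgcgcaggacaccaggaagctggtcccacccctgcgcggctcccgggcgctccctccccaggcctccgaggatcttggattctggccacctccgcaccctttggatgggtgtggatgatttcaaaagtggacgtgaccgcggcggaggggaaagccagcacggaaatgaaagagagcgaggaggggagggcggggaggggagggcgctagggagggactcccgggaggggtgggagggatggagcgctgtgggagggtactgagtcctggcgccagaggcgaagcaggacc
The Prelp window held 1 half-site, GGGTCA, starting at base 3 of the window, and the Hpse window held 0. Neither window held a direct repeat of 2 such half-sites with 3 bases between them. Of all 32851 promoters in the table, 43.7% held at least 1 half-site and 0.0396% held the direct repeat, so a single half-site is a common sight. Spon2 and Cthrc1 are named only.

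The libraries held 13.8 to 17.5 M reads each (median 15.8 M), as worked back from the steps of low values. Cyp24a1, the vitamin D degrading enzyme and the most direct check of the injection, lay between 1898 and 4651 FPKM in vitamin D villi, 2516 and 4487 FPKM in vitamin D crypts and 403 and 3275 FPKM in vitamin D colon, and at most at 62.2, 7.35 and 64.7 FPKM in vehicle villi, crypts and colon. Each tissue has its own table and the tables were scaled separately, so tests were run within a tissue.

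Prelp, the proteoglycan family member, was lifted most in crypts. It ranged from 73.2 to 172 FPKM with a median of 141 in the 6 vitamin D crypts libraries, against 4.16 to 13.7 FPKM with a median of 9.61 in the 6 vehicle crypts libraries. The groups did not overlap, and the lowest treated library was well above the highest vehicle library. The means were 126 ± 41.2 FPKM in vitamin D crypts and 9.18 ± 3.72 FPKM in vehicle crypts (SD, n = 6 each), a ratio of 13.7. On the log2(FPKM + 0.5) scale the difference was 3.73 ± 0.30 (SE). In bulk tissue, fewer cells of a type and less RNA per cell cannot be told apart, and this applies to each level given here.

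In colon, Prelp ranged from 8.30 to 62.6 FPKM with a median of 46.9 in the 7 vitamin D libraries, against 2.40 to 12.7 FPKM with a median of 4.65 in the 6 vehicle libraries. Treated replicate 7, at 8.30 FPKM, was the single treated library inside the vehicle range, and the other 6 lay above every vehicle library. That library also had the lowest Cyp24a1 of the treated colon libraries, 403 FPKM. The means were 38.5 ± 19.0 FPKM in vitamin D colon (SD, n = 7) and 5.83 ± 3.57 FPKM in vehicle colon (SD, n = 6), a ratio of 6.60 and a log2 difference of 2.56 ± 0.43 (SE).

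In villi, Prelp was low and uneven. Vitamin D villi gave 8.99, 6.73 and 3.42 FPKM in replicates 1, 3 and 4 and 0.999 to 1.17 FPKM in the other 4. Vehicle villi gave 0.0191 to 1.67 FPKM, with a median of 0.395. Only replicates 1, 3 and 4 lay above every vehicle library, and the difference was 1.63 ± 0.49 on the log2 scale (SE). Markers of crypt cells (5 of 6 listed genes measured) summed to 40.2 to 294 FPKM in vitamin D villi, with 274 and 294 FPKM in replicates 1 and 3. Treated replicate 4 had a sum of 172 FPKM, below the 180 FPKM of replicate 7, whose Prelp was 1.10 FPKM. In vehicle villi the sum was 25.0 to 1054 FPKM, with 1054 FPKM in the vehicle library of highest Prelp, which had 1.67 FPKM of it. The part of admixed crypt cells in the villus level of Prelp was not tested.

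**Figure D1:**
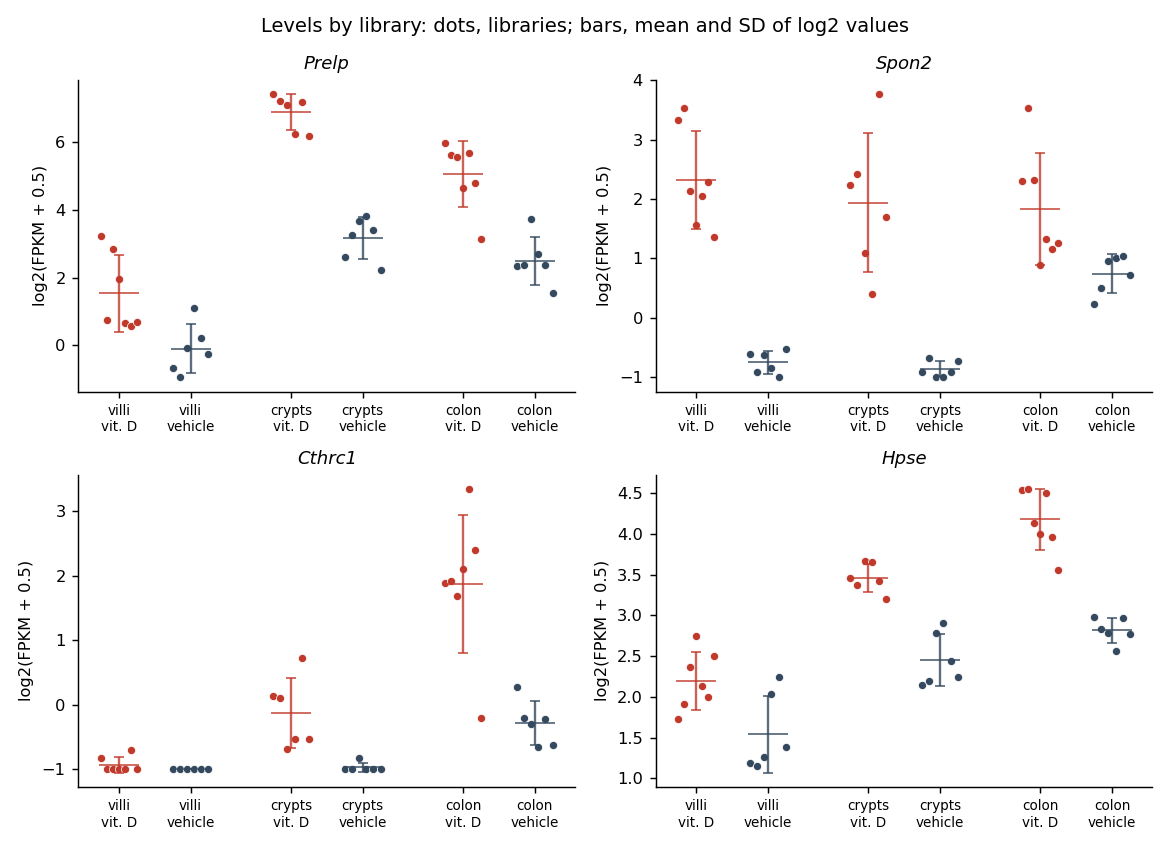
Level of Prelp, Spon2, Cthrc1 and Hpse, on the log2(FPKM + 0.5) axis, in each library of vitamin D and vehicle villi, crypts and colon. Dots are libraries and bars give the mean and SD of the log2 values; Prelp reached 172 FPKM in vitamin D crypts and at most 13.7 FPKM in vehicle crypts, while Cthrc1 stayed near its floor in villi.

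Spon2, the spondin, was nearly silent in both vehicle groups of the small intestine. In villi it gave 2.06 to 11.1 FPKM with a median of 3.89 in the 7 vitamin D libraries, from 1199 reads in all, against 0 to 0.190 FPKM with a median of 0.0993 in the 6 vehicle libraries, from 20 reads in all. The groups did not overlap. The ratio of the means was 55.1, and the difference on the log2(FPKM + 0.5) scale was 3.08 ± 0.32 (SE). Spon2 passed the filter in villi, 1 FPKM in 6 libraries, only through its treated libraries. The pseudocount compresses the change of so low a gene: with a pseudocount of 0.1 the same difference was 4.64.

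In crypts, Spon2 gave 0.821 to 13.2 FPKM with a median of 3.48 in the 6 vitamin D libraries, from 941 reads, against 0 to 0.120 FPKM with a median of 0.0309 in the 6 vehicle libraries, from 9 reads. Every treated library was above every vehicle library, and treated replicate 5, at 13.2 FPKM, stood apart from the other 5, which reached 4.87 FPKM. The ratio of means was 95.6. Because only 5 libraries reached 1 FPKM and the filter asks for 6, Spon2 was not among the genes tested in crypts.

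In colon, the vehicle level of Spon2 was higher than in the small intestine and the gap narrower. Spon2 lay between 1.36 and 11.2 FPKM with a median of 2.00 in vitamin D colon and between 0.678 and 1.56 FPKM with a median of 1.29 in vehicle colon. The log2 difference was 1.08 ± 0.37 (SE), and 6 of 7 treated libraries lay above every vehicle library.

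Cthrc1, the collagen-repeat protein, was measured above a few reads mainly in colon. It gave 0.370 to 9.66 FPKM with a median of 3.27 in the 7 vitamin D colon libraries, from 433 reads, against 0.134 to 0.707 FPKM with a median of 0.338 in the 6 vehicle colon libraries, from 31 reads. Again treated replicate 7 was inside the vehicle range and the other 6 were above it, with at least 2.71 FPKM. The ratio of means was 11.7 and the log2 difference 2.16 ± 0.42 (SE). Cthrc1 too passed the filter in colon only through its treated libraries. Among the fits without 1 library, the difference was 2.51 without treated replicate 7 and 1.92 without treated replicate 5.

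In crypts Cthrc1 came to 46 reads over the 6 vitamin D libraries, 0.120 to 1.15 FPKM, and to 1 read over the 6 vehicle libraries. Each treated library held 2 to 19 reads, so the groups did not overlap. The ratio of read rates was 44.0 with an exact 95% counting interval of 7.51 to 1774. This interval pools the reads of each group and covers counting error only, not the spread between libraries. Cthrc1 was picked on this contrast, so the interval is a description and no test. In villi it came to 3 reads in the 7 vitamin D libraries and 0 reads in the 6 vehicle libraries, too few for a fold.

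Hpse, the heparan sulphate cutting enzyme, was the most even of the 4 between replicates. In colon it gave 11.3 to 22.9 FPKM with a median of 17.0 in the 7 vitamin D libraries, against 5.41 to 7.41 FPKM with a median of 6.49 in the 6 vehicle libraries. The groups did not overlap. The ratio of means was 2.75 and the log2 difference 1.36 ± 0.16 (SE).

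In crypts, Hpse lay between 8.67 and 12.1 FPKM with a median of 10.3 in vitamin D libraries and between 3.91 and 6.99 FPKM with a median of 4.57 in vehicle libraries. The groups were again apart. The ratio of means was 2.08 and the log2 difference 1.01 ± 0.14 (SE). In villi the levels were 2.80 to 6.21 FPKM with a median of 3.90 in vitamin D libraries and 1.73 to 4.23 FPKM with a median of 2.00 in vehicle libraries, only 3 of 7 treated libraries were above every vehicle library, and the log2 difference was 0.65 ± 0.21 (SE).

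Read against the whole table, limma with an adjusted p under 0.05 called 1 of the 3 genes that passed the filter in villi (Spon2), beside 2.17% of all tested genes called higher there. It called 2 of 2 in crypts (Prelp and Hpse), beside 1.13%, and 3 of 4 in colon (Prelp, Cthrc1 and Hpse), beside 0.763%. Every treated library was above every vehicle library for 1 of the 4 genes in villi, all 4 in crypts and 1 in colon, against 1.75%, 1.23% and 0.754% of all tested genes. Those shares cover only genes that passed the filter, which Spon2 and Cthrc1 in crypts and Cthrc1 in villi did not. Spon2 in villi and Cthrc1 in colon entered the fit only through their treated libraries. Prelp in villi did so almost only, with a vehicle median of 0.395 FPKM. Since the 4 genes were also picked on this contrast, these counts describe them and nothing is read from them. With plain-named libraries alone (those with no number or hyphen in their column name), Hpse was not called in crypts, and Cthrc1 was not called in colon in 11 of the 13 fits that left out 1 library. The count of genes called in crypts was 157 and depended on vehicle replicate 4, without which it was 1059, and a block on replicate number gave 444.

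**Figure D2:**
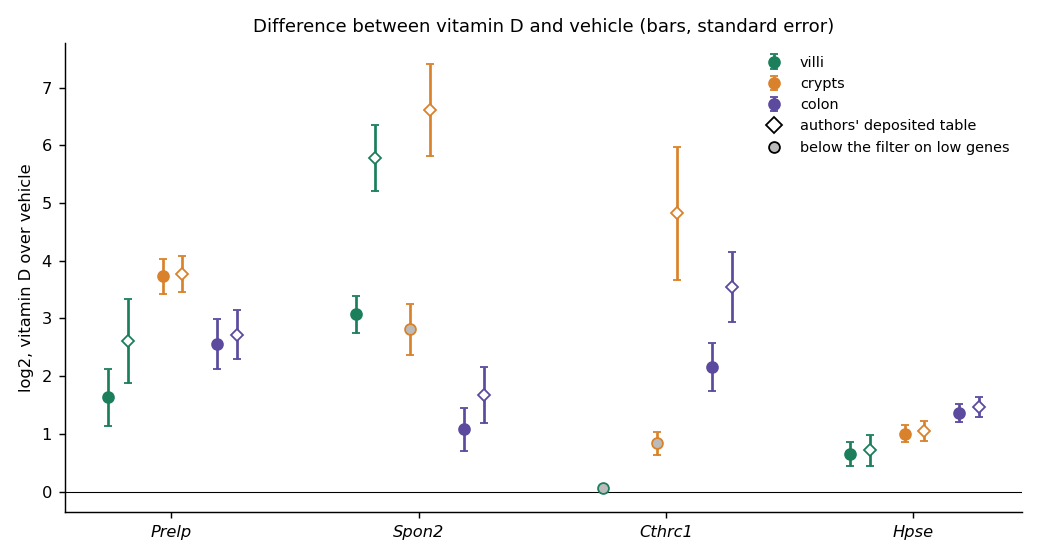
Log2 difference of vitamin D over vehicle with its standard error for the 4 genes in villi, crypts and colon, from limma on log2(FPKM + 0.5) (circles, grey where the gene was below the filter) and from the authors' deposited table (diamonds). The deposited value for Cthrc1 in villi, 1.32 ± 3.11, rests on 3 reads and is not drawn.

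The authors' deposited table gave larger values where reads were few and close ones elsewhere. For Prelp it gave log2 fold changes of 2.62 ± 0.73 in villi, 3.77 ± 0.30 in crypts and 2.72 ± 0.42 in colon (SE). For Spon2 the authors' deposited table gave 5.78 ± 0.57 in villi, 6.61 ± 0.80 in crypts and 1.68 ± 0.48 in colon. For Cthrc1 the authors' deposited table gave 4.82 ± 1.15 in crypts and 3.55 ± 0.61 in colon, and for Hpse 0.72 ± 0.27 in villi, 1.05 ± 0.17 in crypts and 1.46 ± 0.17 in colon.

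The 4 genes were ordered differently along the gut. Under calcitriol, Prelp was highest in crypts, whose lowest library at 73.2 FPKM was above the highest colon library at 62.6 FPKM, and lowest in villi, which reached 8.99 FPKM and so overlapped the lowest colon library at 8.30 FPKM. Hpse was highest in colon, with 11.3 to 22.9 FPKM, next in crypts, with 8.67 to 12.1 FPKM, and lowest in villi, with 2.80 to 6.21 FPKM, and only colon and crypts overlapped. Spon2 overlapped among all 3 treated tissues. Cthrc1 was highest in colon, at a median of 3.27 FPKM, against 0.381 FPKM in crypts and 0 FPKM in villi. In vehicle mice Prelp overlapped between crypts and colon, at medians of 9.61 and 4.65 FPKM, and was at most 1.67 FPKM in villi. These levels are set across separately scaled tables and were not tested.

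For the treated libraries the authors' deposited tables of tissue against tissue gave Prelp a log2 fold change of 4.73 ± 0.60 in crypts over villi and of -1.78 ± 0.37 in colon over crypts (SE). Their direction was inferred from the log2 ratios of mean FPKM (r = 0.987 for crypts over villi, 0.937 for colon over villi, 0.923 for colon over crypts). The median offset of the deposited values from those ratios was -0.48, -0.67 and -0.08 in that order, and it was not removed. Hpse had 0.83 ± 0.18 in crypts over villi and 0.70 ± 0.17 in colon over crypts in the authors' deposited tables, and Cthrc1 had 3.00 ± 0.64 in colon over crypts. Spon2 had -0.69 ± 0.55 in crypts over villi, -1.15 ± 0.51 in colon over villi and -0.32 ± 0.61 in colon over crypts in the authors' deposited tables.

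The 4 genes differed in their spread between replicates. Across the treated libraries the coefficient of variation was 12.7% in crypts and 25.0% in colon for Hpse, 32.8% and 49.2% for Prelp, 97.9% and 89.8% for Spon2 and 83.2% and 71.8% for Cthrc1. In vitamin D crypts, replicates 5, 2 and 1 were the 3 highest for both Spon2 (13.2, 4.87 and 4.22 FPKM) and Cthrc1 (1.15, 0.570 and 0.592 FPKM), and Prelp was highest in the same replicates and lowest in 4 and 6, at 76.1 and 73.2 FPKM. Markers of villus enterocytes summed to 5893 to 25970 FPKM in vitamin D crypts, with the highest sum in replicate 6. Treated replicate 4, also low in Prelp, had a sum of 9584 FPKM, below the 15410 FPKM of replicate 5, whose Prelp was 147 FPKM. In vehicle crypts the sum was 5223 to 44160 FPKM, with the highest in replicate 6, which also had the lowest Prelp of that group. Vehicle replicate 5 had a sum of 36240 FPKM and 10.2 FPKM of Prelp, above the group median of 9.61 FPKM. The part of villus material in the crypt levels was not tested.

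The 12 smooth muscle markers, among them Myl9 and Mylk, were set beside the 4 genes because scraped colon can carry muscle. In colon the smooth muscle sum was 38.4 to 15320 FPKM with a median of 209 in vitamin D libraries and 48.3 to 659 FPKM with a median of 117 in vehicle libraries. Treated replicates 1 and 2 stood far above the rest, at 4390 and 15320 FPKM, with Myl9 at 903 and 2779 FPKM and Mylk at 131 and 321 FPKM. The 10 fibroblast markers summed to 18.6 to 579 FPKM in vitamin D colon and 15.5 to 134 FPKM in vehicle colon. The difference between treated and vehicle colon in the mean log2 level of the smooth muscle list was 1.23, with treated libraries on both sides of the vehicle range (exact permutation test, two-sided, p = 0.392, adjusted over 6 tests 0.471, n = 7 and 6). Of 10 smooth muscle and 9 fibroblast genes tested in colon, limma called 0. Before adjustment the number with p under 0.05 was also 0, as was the number of calls in the authors' deposited table.

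Without treated replicates 1 and 2, a choice made after seeing the data, the log2 difference in colon was 2.26 for Prelp, 0.65 for Spon2, 2.16 for Cthrc1 and 1.22 for Hpse. Of the 4, limma called Hpse alone in that smaller fit, beside 57 of all 11316 tested genes. With the smooth muscle level as covariate in all 13 colon libraries the differences were 2.29 for Prelp, 0.81 for Spon2 and 2.15 for Cthrc1. That fit called Prelp, Cthrc1 and Hpse, beside 91 of all 11540 tested genes. The 4 genes were picked on this contrast, so nothing is read from the calls in either fit. Spon2 is the gene whose colon difference moved most: 11.2 FPKM in treated replicate 2, the library richest in muscle, was its highest value. Treated replicate 5, with a smooth muscle sum of 49.8 FPKM, had 51.2 FPKM of Prelp and 9.66 FPKM of Cthrc1, and no other library had as much Cthrc1.

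**Figure D3:**
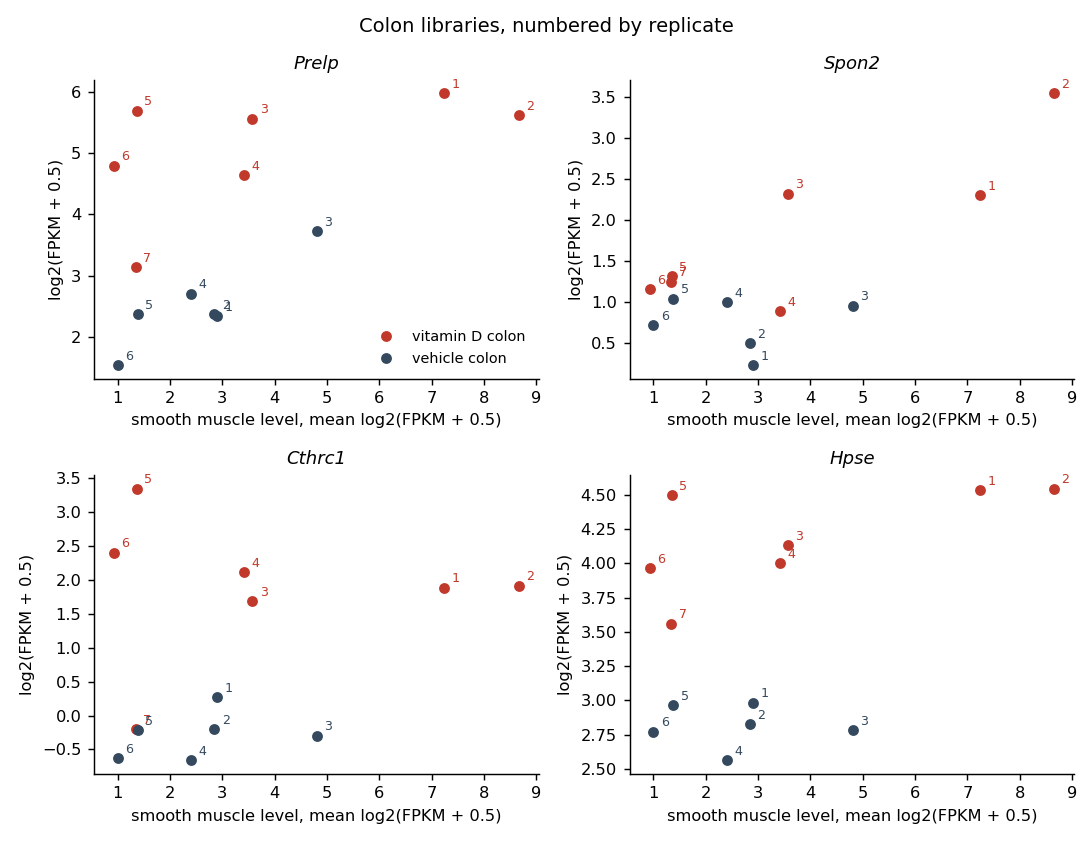
Level of each gene against the mean log2(FPKM + 0.5) of the 12 smooth muscle markers in the 7 vitamin D and 6 vehicle colon libraries, numbered by replicate. Treated replicates 1 and 2 lie far to the right, and the treated libraries to the left, 5 and 6, show Prelp, Cthrc1 and Hpse above the vehicle libraries, with replicate 7 inside the vehicle range for Prelp and Cthrc1.

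Within each colon group, 16 correlations of the 4 genes with the smooth muscle or fibroblast level were computed, and 0 passed after adjustment. The largest r with smooth muscle in each group were Spon2 with smooth muscle in vitamin D colon (r = 0.86, exact permutation p = 0.0153, adjusted p = 0.133, rho = 0.75, exact permutation p = 0.0663, n = 7) and Prelp with smooth muscle in vehicle colon (r = 0.89, exact permutation p = 0.0333, adjusted p = 0.133, rho = 0.49, exact permutation p = 0.356, n = 6). Without the 2 libraries farthest from the median level, r was 0.42 for Spon2 and -0.02 for Prelp. With fibroblasts, Spon2 in vitamin D colon had r = 0.85 (exact permutation p = 0.0173, adjusted p = 0.133, rho = 0.71, exact permutation p = 0.0881, n = 7), and 0.69 without those libraries. Prelp in vehicle colon had r = 0.86 with fibroblasts (exact permutation p = 0.025, adjusted p = 0.133, rho = 0.60, exact permutation p = 0.242, n = 6), and 0.14 without them. The largest rank correlations were those of Hpse in vitamin D colon, with rho = 0.89 for fibroblasts (exact permutation p = 0.0123, adjusted p = 0.190, r = 0.66, exact permutation p = 0.109, n = 7) and rho = 0.86 for smooth muscle (exact permutation p = 0.0238, adjusted p = 0.190, r = 0.66, exact permutation p = 0.120, n = 7), and r was 0.29 and 0.12 without those libraries. Cthrc1 in vitamin D colon had r = 0.01 with smooth muscle (exact permutation p = 0.982, rho = -0.25).

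In crypts, where Prelp was highest, some connective tissue markers were measured and most were low. The smooth muscle sum was 25.0 to 39.5 FPKM in vitamin D crypts and 28.2 to 42.6 FPKM in vehicle crypts, of which Mylk alone made 12.2 to 25.0 FPKM in vitamin D crypts and 15.4 to 30.2 FPKM in vehicle crypts. Smtn lay between 7.04 and 14.9 FPKM in vitamin D crypts and 5.71 and 13.7 FPKM in vehicle crypts. Tagln lay between 3.08 and 3.92 FPKM in vitamin D crypts and 3.26 and 4.18 FPKM in vehicle crypts, and vimentin (Vim) between 4.20 and 5.00 FPKM in vitamin D crypts and 4.19 and 7.56 FPKM in vehicle crypts. In all, 8 of 12 smooth muscle and 7 of 10 fibroblast markers were below 0.5 FPKM in every crypts library. The fibroblast sum was 5.34 to 6.04 FPKM in vitamin D crypts and 5.11 to 8.65 FPKM in vehicle crypts. Acta2 reached 0.172 FPKM in vitamin D crypts and 0.310 FPKM in vehicle crypts. The collagen genes Col1a1 and Col3a1 were at most 0.0925 and 0.0462 FPKM in vitamin D crypts and 0.0645 and 0.0344 FPKM in vehicle crypts. Decorin (Dcn) reached 0.302 FPKM in vitamin D crypts and 0.150 FPKM in vehicle crypts. In villi the smooth muscle sum was 26.4 to 40.6 FPKM in vitamin D libraries and 31.7 to 40.5 FPKM in vehicle libraries. Mylk alone made 16.2 to 34.2 FPKM of it in vitamin D villi and 23.2 to 32.9 FPKM in vehicle villi. Myl9 was at most 1.51 FPKM in vitamin D villi and 0.803 FPKM in vehicle villi.

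Around the 4 genes, 9 lists of matrix genes were read, 213 genes in all, of which 211 had a row. The lists took in the other small leucine-rich proteoglycans, the spondins and thrombospondins, heparan sulphate core proteins, heparan sulphate enzymes, Wnt and TGF-beta genes near Cthrc1, collagens, matricellular proteins, proteases and matrix receptors. In villi 75 were tested, and limma called 5 higher and 0 lower, 6.67% against 2.47% of all genes, of which 0.299% were called lower. In crypts 85 were tested, with 1 higher and 1 lower, 2.35% against 1.46% of all genes, of which 0.335% were called lower. In colon 123 were tested and limma called 0, while 0.823% of all genes were called, 0.0607% lower. Before adjustment, p under 0.05 was met by 15 of 75 in villi, 22 of 85 in crypts and 12 of 123 in colon, and the calls in the authors' deposited table numbered 8 in villi, 6 in crypts and 1 in colon. The matching shares over all tested genes are not given, so these last counts are not read as a result about the lists. The median log2 difference of the tested list genes was 0.00, -0.01 and 0.05 in villi, crypts and colon, and over all tested genes it was -0.01, -0.01 and 0.00. With replicate number blocked, 8 list genes were called in villi, beside 341 of all 9706 tested genes, and 5 in crypts, beside 444 of all 10733.

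Chad, or chondroadherin, a leucine-rich matrix protein of cartilage and a relative of Prelp, was the one list gene called in both villi and crypts. It rose in villi to 1.88 to 3.33 FPKM in vitamin D libraries, against 0.552 to 1.21 FPKM in vehicle libraries, with a log2 difference of 1.05 ± 0.15 (SE, limma adjusted p = 0.00151). Its mean in vehicle villi was 0.899 FPKM, so it passed the filter of 1 FPKM there through its treated libraries. In crypts it rose to 1.69 to 8.68 FPKM in vitamin D libraries, against 0.692 to 1.19 FPKM in vehicle libraries (1.48 ± 0.28 on the log2 scale, limma adjusted p = 0.0160). The groups did not overlap in either tissue, and treated crypts replicate 5, highest for Spon2 and Cthrc1, was also highest for Chad. In colon Chad had 3.14 ± 1.21 FPKM in vitamin D libraries (SD, n = 7) and 2.64 ± 0.795 FPKM in vehicle libraries (SD, n = 6), with overlap. Only 2 of the 15 listed leucine-rich genes were tested in villi and 2 in crypts. In colon 6 were, each with positive differences (median 0.85) and 0 called, in a tissue where fibroblast sums also ran up to 579 FPKM in vitamin D and 134 FPKM in vehicle libraries.

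Among the proteins that carry heparan sulphate, the substrate of heparanase, syndecan-1 (Sdc1), a membrane proteoglycan of epithelia, rose in villi to 24.4 ± 3.85 FPKM in vitamin D libraries (SD, n = 7), against 14.3 ± 3.79 FPKM in vehicle libraries (SD, n = 6), a log2 difference of 0.77 ± 0.15 (SE, limma adjusted p = 0.0136). All but 1 treated library were above every vehicle library. In crypts it had 44.7 ± 5.68 FPKM in vitamin D and 30.1 ± 6.58 FPKM in vehicle libraries (SD, n = 6 each), with limma adjusted p = 0.0712, and 0.0134 with the replicate block. Perlecan (Hspg2), the basement membrane proteoglycan that Prelp binds, had 6.96 ± 2.71 FPKM in vitamin D crypts and 3.27 ± 1.09 FPKM in vehicle crypts (SD, n = 6 each), with limma adjusted p = 0.116, and 0.0132 with the block. Of the 13 core protein genes, 6 were tested in villi, 7 in crypts and 7 in colon, and Sdc1 in villi was the single call. With the block, Sdc4, another syndecan, was also called in villi, where it was lower (-0.44 on the log2 scale, limma adjusted p = 0.0489). It was called with name style as a covariate too (-0.42, limma adjusted p = 0.0154). Hspg2 was called in colon with the block (1.05, limma adjusted p = 0.0385), where same-numbered libraries deviated together in 3 of 6 pairs.

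Among 34 genes that build or degrade heparan sulphate, 22 were tested in villi, 23 in crypts and 24 in colon, and 1 was called. Extl1, an exostosin-like glycosyltransferase, rose in villi to 5.78 to 11.1 FPKM in vitamin D libraries, against 1.48 to 4.54 FPKM in vehicle libraries, without overlap (1.24 ± 0.21 on the log2 scale, SE, limma adjusted p = 0.00509). The list's median log2 difference was 0.04 in villi, 0.03 in crypts and -0.05 in colon. The other enzymes of the pathway of heparanase were thus centred near 0 as a list.

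**Figure D4:**
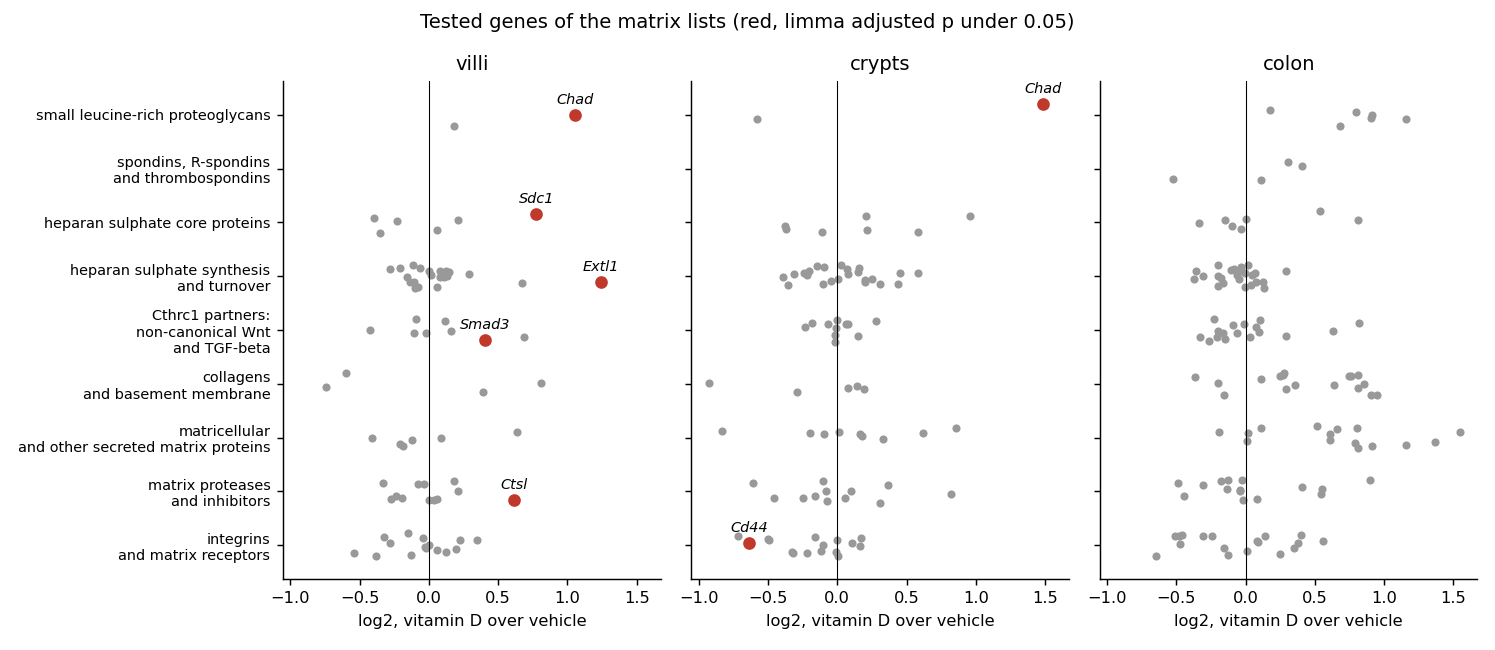
Log2 difference of vitamin D over vehicle for each tested gene of the 9 matrix lists in villi, crypts and colon, with genes past an adjusted p of 0.05 in limma in red and named. The 4 picked genes are not in the lists; 5 genes stand out in villi, 2 in crypts and 0 in colon.

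In the Wnt and TGF-beta list, Smad3, which carries TGF-beta signals to the nucleus, rose in villi to 10.5 ± 0.774 FPKM in vitamin D libraries (SD, n = 7), against 7.88 ± 1.20 FPKM in vehicle libraries (SD, n = 6), a log2 difference of 0.41 ± 0.10 (SE, limma adjusted p = 0.0377). That call was lost in 14 of 22 fits. Ctsl, the lysosomal protease cathepsin L that in other settings activates heparanase, rose in villi to 18.3 ± 3.92 FPKM in vitamin D libraries (SD, n = 7), against 11.6 ± 1.87 FPKM in vehicle libraries (SD, n = 6), with a log2 difference of 0.62 ± 0.14 (SE, limma adjusted p = 0.0295), and was lost in 11 of 22 fits. Cd44, the hyaluronan receptor and a Wnt target of crypts, fell to 6.06 to 7.53 FPKM in vitamin D crypts, against 9.00 to 13.2 FPKM in vehicle crypts, with no overlap (-0.64 ± 0.10 on the log2 scale, SE, limma adjusted p = 0.00720).

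No gene of the spondin list was called: 0 of 16 reached the filter in villi or crypts, where the list summed to 0.768 to 2.09 FPKM in vitamin D villi, 0.783 to 1.82 FPKM in vehicle villi, 0.905 to 1.77 FPKM in vitamin D crypts and 0.846 to 1.84 FPKM in vehicle crypts. Spon2 by itself, at 2.06 to 11.1 FPKM in vitamin D villi, was above the whole rest of its list in at least 6 of the 7 libraries. Collagens and basement membrane genes had 4 tested in villi, 5 in crypts and 17 in colon, with 0 called in each. In colon, 14 of those 17 and 14 of 15 matricellular genes had positive differences, with medians of 0.36 and 0.66 on the log2 scale, beside the uneven smooth muscle and fibroblast sums given above, whose part was not tested.

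The genes next to each member on the chromosome, by RefSeq order, were Optc and Fmod for Prelp, Slc5a1 and Ctbp1 for Spon2, Fzd6 and Slc25a32 for Cthrc1, and Coq2 and Helq for Hpse, and none overlaps its member. Helq, a DNA helicase gene beside Hpse, was the one called. It rose in villi to 2.50 to 4.62 FPKM in vitamin D libraries, against 1.26 to 2.15 FPKM in vehicle libraries, with no overlap (0.88 ± 0.14 on the log2 scale, SE, limma adjusted p = 0.00203). Helq had 5.00 ± 0.793 FPKM in vitamin D crypts and 3.54 ± 0.595 FPKM in vehicle crypts (SD, n = 6 each, limma adjusted p = 0.124), and 3.88 ± 0.744 FPKM in vitamin D colon and 2.77 ± 0.480 FPKM in vehicle colon (SD, n = 7 and 6, limma adjusted p = 0.307). Fmod and Optc, both leucine-rich proteoglycans like Prelp, stayed below the filter in all 3 tissues: in crypts Optc was at most 0.172 FPKM in vitamin D and 0.160 FPKM in vehicle libraries. In colon, where too few libraries reached 1 FPKM for a test, Optc ran from 0.0501 to 84.2 FPKM with a median of 0.665 in vitamin D libraries and from 0.0979 to 2.42 FPKM with a median of 0.363 in vehicle libraries. Slc5a1, the sodium and glucose transporter beside Spon2, had 2754 ± 406 FPKM in vitamin D villi (SD, n = 7) and 2748 ± 629 FPKM in vehicle villi (SD, n = 6), with limma adjusted p = 0.973.

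**Figure D5:**
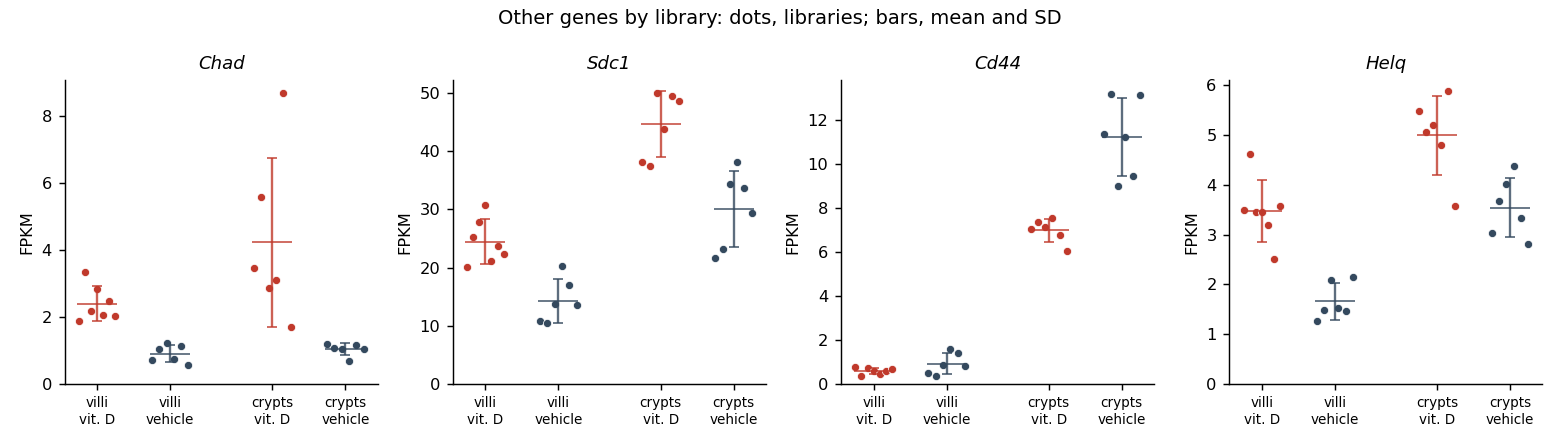
FPKM of Chad, Sdc1, Cd44 and Helq in each library of vitamin D and vehicle villi and crypts, with dots for libraries and bars for mean and SD. Chad is above its vehicle range in every treated library of both tissues, and Cd44 is below it in every treated crypts library.

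The genes most like each member were ranked, in the tissue where it was highest under calcitriol, by Pearson's r of log2(FPKM + 0.5) over all libraries, treated and vehicle together, so that the treatment difference enters r and no p is given. For Prelp over 12 crypts libraries they were Rnf149 (r = 0.99), Hmga2 (0.99) and Krt7 (0.98) among 9992 genes, and Hpse was 33rd with 0.94. For Hpse over 13 colon libraries they were Myadm (0.97), Krt7 (0.96) and Lrrc26 (0.96) among 10755 genes, with Prelp 18th at 0.92. For Cthrc1 over the same colon libraries they were Gars (0.97), Cldn15 (0.95) and Cbr2 (0.95), with Hpse 20th at 0.91. For Spon2 over 13 villi libraries they were Oxr1 (0.97), Top2b (0.96) and Pip5k1b (0.96) among 9072 genes, with Prelp 406th at 0.67.

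When each group's mean was removed first, so that only spread within groups remained, the closest were Sox4, Pkp1 and Mtss1 to Prelp (r = 0.95, 0.94 and 0.92), Msi1, Slc19a1 and Ssr2 to Hpse (0.94, 0.92 and 0.90), Gars, Shmt1 and Rdh13 to Cthrc1 (0.90, 0.89 and 0.89) and Rrn3, Ndufb11 and Gpr56 to Spon2 (0.88, 0.85 and 0.85). Krt7, a simple epithelial keratin near Prelp in crypts and Hpse in colon, had means of 139 FPKM in vitamin D crypts and 47.4 FPKM in vehicle crypts, and of 227 FPKM in vitamin D colon and 96.1 FPKM in vehicle colon. Within groups Hpse and Prelp had r = 0.69 in colon and 0.57 in crypts, and in villi Spon2 had r = 0.17 with Prelp and -0.64 with Hpse.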

How the data were processed

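RNA-seq of 38 libraries was read from 3 tables of FPKM, 1 per tissue, made by the authors. kallisto 0.45.0, DESeq 1.28.1 and DESeq2, with build mm9, are named in the submitters' processing notes, which do not say which tool made which column. The authors deposited tables of comparisons with a mean level (signal), log2 fold change with its standard error, test statistic (a score) and p-value. Genes with at least 1 FPKM in 6 libraries of a tissue (4 for the plain-named subset) entered a limma fit (version 3.58.1, R 4.3.3, trended variance) on log2(FPKM + 0.5), with Benjamini-Hochberg adjustment over all genes tested, threshold 0.05. No gene was called here by a count test. Of values expected to hold 0.3 to 15 reads, 84.7% to 92.8% came out whole within 0.05 reads. These reads give depth, the read totals of Spon2 and Cthrc1, the counting interval of Cthrc1 in crypts and the comparison of replicate pairs. The limma script was tested on simulated data. The 4 genes and all lists were chosen with earlier results of these data known. Genes were named by rule: the 4 genes, checks, up to 4 called genes per list and tissue, 3 likest genes by each measure, and neighbours. Perlecan, syndecan-1 in crypts, syndecan-4, Smtn, Tagln and Vim were named after their values were seen. Of 213 list genes, 208 were found under their symbol and 3 under a former one, and 2 had no row. Labels do not say that replicates are separate mice, so p-values measure spread between libraries. Every pair of replicates differed by more than sampling noise, with a chi-square of at least 12.7 times its degrees of freedom. Titles share replicate numbers across treatments. Same-numbered libraries deviated together (r of deviations from group means over 0.1) in 6 of 6 pairs in villi, 6 of 6 in crypts and 3 of 6 in colon. In colon r was 0.06 to 0.57. The vehicle library likest a treated one shared its number in 4, 3 and 3 of 6 pairs in villi, crypts and colon. The number was therefore also fitted as a block, and whether it marks a pairing is not settled. Some libraries carry a number or hyphens in their column name, and no source used here says what that marks. The others form the plain-named subset. Promoters came from RefSeq (GRCm38.p6) and neighbours from RefSeq gene order.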

Additional observations from a re-analysis of the deposited data

Results flagged for a closer look

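Of 35 groups of libraries checked, 7 held a library far from its neighbours by Dixon's criterion at 95%. Its 5% rate of chance flags holds for normally distributed values. Here it was applied to unlogged FPKM and sums, and flagged groups share libraries, so no excess over chance is read from the 7. Spon2 stood apart in vitamin D crypts replicate 5, at 13.2 FPKM, where the next library had 4.87, and in vitamin D colon replicate 2, at 11.2 FPKM, where the next had 4.49. Prelp stood apart in vehicle colon replicate 3, at 12.7 FPKM, where the next had 6.02. Cthrc1 stood apart in vehicle crypts replicate 3, at 0.0636 FPKM, which is 1 read against 0 in the other 5, a pattern that meets the criterion at any level. The summed smooth muscle markers stood apart in vitamin D colon replicate 2, at 15320 FPKM, and in vehicle colon replicate 3, at 659 FPKM. The summed fibroblast markers stood apart in vitamin D colon replicate 2, at 579 FPKM. So the colon libraries in which Spon2 (treated) and Prelp (vehicle) stood apart were also those with the highest smooth muscle sum of their group.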

How the results depend on the processing

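The 4 genes kept a positive log2 difference in each of 21 to 23 fits per tissue. They were picked for a rise and the fits share most libraries, so nothing is read from the kept sign. Cthrc1 in villi had 0 reads in all 6 vehicle libraries, which all but fixes its sign, and its range there was 0.028 to 0.258. In villi the range was 1.25 to 2.38 for Prelp, 2.35 to 4.64 for Spon2 and 0.56 to 0.79 for Hpse. In crypts it was 3.54 to 3.98 for Prelp, 2.09 to 4.55 for Spon2, 0.50 to 2.11 for Cthrc1 and 0.94 to 1.12 for Hpse, and in colon 2.26 to 2.88, 0.65 to 1.59, 1.70 to 2.95 and 1.22 to 1.51 for Prelp, Spon2, Cthrc1 and Hpse. The extremes for Spon2 and Cthrc1 in villi and crypts came mostly from pseudocounts of 0.1 and 1. With plain-named libraries alone, 99 genes were called in villi and 86 in crypts, the list counts were 1 and 1, and the villi smooth muscle difference turned to 0.09. With name style as covariate, crypts gave 391 genes and 5 list genes. With no filter on low genes, 3 list genes were called in villi, beside 204 of all 16976 tested genes. With the replicate block, 341 genes were called in villi and 444 in crypts (249 higher, 195 lower, where the fit without it had 121 and 36), and 8 and 5 list genes. In colon, where same-numbered libraries deviated together in 3 of 6 pairs, the block gave 147 genes and 2 list genes. Without both muscle-rich libraries (treated colon replicates 1 and 2), 57 genes were called in colon and the smooth muscle difference turned to -0.43. Leaving out each library in turn gave 172 to 220 genes in villi, 105 to 1059 in crypts (the most without vehicle replicate 4) and 66 to 141 in colon (the most without treated replicate 7). List genes called were then 3 to 6, 2 to 11 and 0 to 0, and the smooth muscle difference -0.154 to 0.015, -0.07 to -0.03 and 0.42 to 1.71. The 11 list genes in crypts came without vehicle replicate 4, beside 1059 of all 10681 tested genes. The cause of these shifts was not tested. Sdc1 and Extl1 in villi and Cd44 in crypts lost their calls with plain-named libraries alone (limma adjusted p = 0.123, 0.137 and 0.0723). Depth limits Cthrc1 in villi and crypts and Spon2 in vehicle small intestine, where most libraries held under 10 reads.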
